A study of Mus musculus with 6 samples.

Results

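The proteasome is the large protease of the cytosol and nucleus that degrades proteins tagged with ubiquitin. Its transcripts were examined in primary hepatocytes of 6 adult C57BL/6 mice. All gene symbols of the platform annotation that start with Psma, Psmb, Psmc, Psmd, Psme, Psmf or Psmg were taken, which gave 49 of the 20416 genes with a value. Of these, 48 encode proteasome subunits, activators, an inhibitor or assembly chaperones, and 1, Psmc3ip, shares only the prefix and is given apart. By symbol, 19 genes were placed in the 20S core, 20 in the 19S regulatory particle, 5 among the activators and inhibitor, and 4 among the assembly chaperones. The regulatory particle so defined holds all Psmd genes, with Psmd5, Psmd9 and Psmd10, which encode chaperones that assemble its base. The class of assembly chaperones holds the Psmg genes only.

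The miR-143DOX group held 3 mice with a doxycycline-inducible allele of miR-143, a microRNA, and the control group held 3 wildtype littermates. Every animal of both groups drank doxycycline at 4 mg/ml with 10% sucrose for 8 days, so the controls carried the drug but not the transgene. Hepatocytes were freed by collagenase perfusion of the liver, snap-frozen, and read on 1 Affymetrix array per mouse. The design sets hepatocytes of mice with the inducible allele beside hepatocytes of wildtype littermates, all given doxycycline. The labels do not name the promoter or the cell types that drive the allele. Whether miR-143 was raised in the miR-143DOX mice was not analysed here.

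The core is a barrel of stacked rings, with alpha subunits at its gates and beta subunits inside, of which Psmb5, Psmb6 and Psmb7 carry the cutting sites. The regulatory particle caps the barrel, binds and trims ubiquitin chains, unfolds the substrate with a ring of ATPases and feeds it in. Cells exposed to interferon gamma exchange the cutting subunits for Psmb8, Psmb9 and Psmb10, the immunoproteasome, and can cap the core with the activator Psme1-Psme2, which needs no ubiquitin. In liver the proteasome disposes of misfolded secretory proteins pulled back from the endoplasmic reticulum and sets the lifetime of many short-lived regulators.

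A gene's value was the mean log2 intensity of the probe sets that name that gene alone, and differences are miR-143DOX minus control. A filter left out the 25% of genes with the lowest mean level (under log2 5.06) and kept 15312, among them 47 of the 48 proteasome genes. The one left out was Psmb11, the thymus-specific cutting subunit, at 4.72, 4.90 and 4.70 in miR-143DOX replicates 1 to 3 and 4.06, 4.85 and 5.11 in control replicates 1 to 3. Pairs of arrays had Pearson correlations of 0.933 to 0.952. All 12 hepatocyte markers passed the filter, with a mean log2 of 12.98 to 13.12 over the miR-143DOX arrays and 13.01 to 13.27 over the control arrays.

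No proteasome gene passed the test between the groups. Of the 47 genes tested, 0 passed 5% false discovery rate (FDR) in limma's moderated test adjusted over all 15312 genes (adjusted p = 0.9997 for each), where 0% of all genes passed. At an unadjusted p under 0.05 there were 0 of 47, against 3.06% of all genes. Every one of the 47 intervals of the difference (95%) included 0. The interval that reached highest was that of Psmb6, up to 0.66, a fold of 1.58, and the one that reached lowest was that of Psmg4, down to -0.62, a fold of 0.65. The intervals of the other genes ended inside these bounds.

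**Figure D1:**
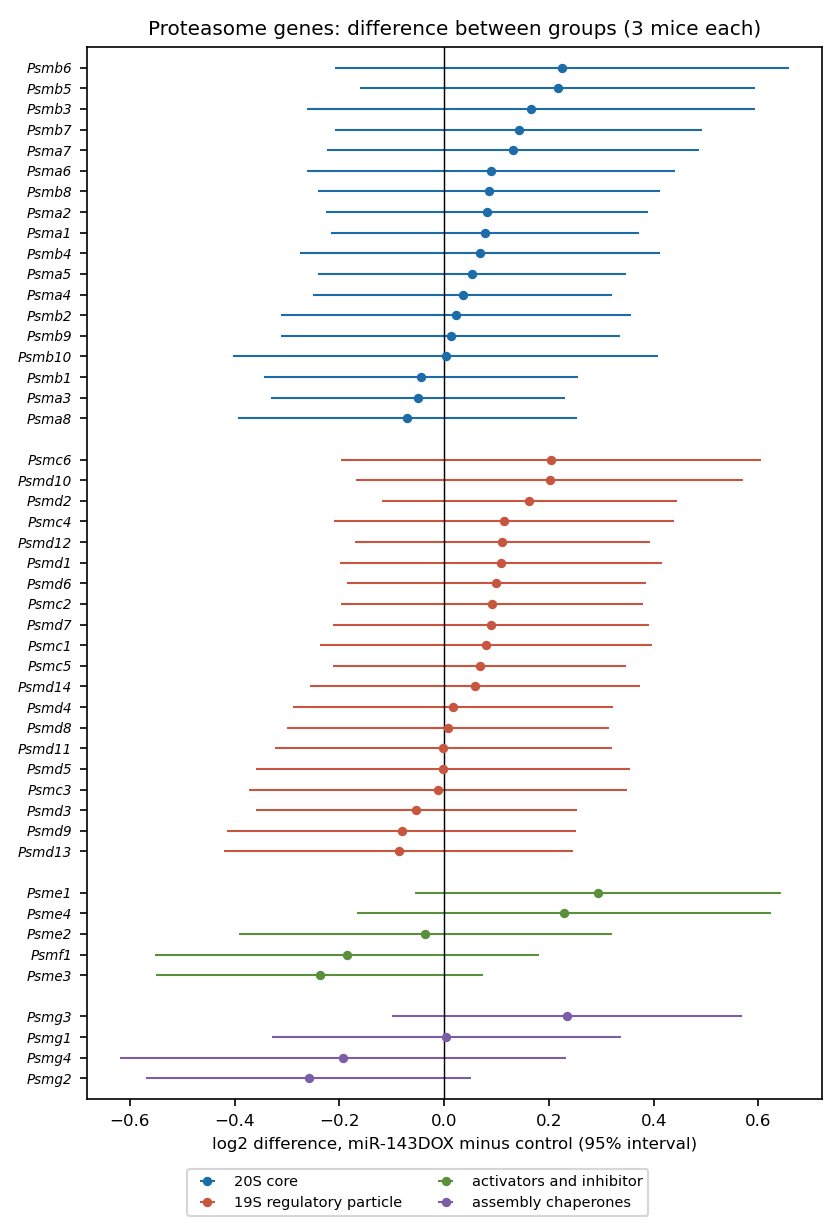
Difference in log2 intensity (x axis, miR-143DOX minus control, 3 mice each) of the 47 tested proteasome genes, 1 per line, ordered within particle class. Points are differences and bars are 95% intervals of the limma fit; every bar crosses 0, from -0.62 for Psmg4 to 0.66 for Psmb6 at the outer ends.

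Most differences were small and lay above 0. They ran from -0.26 for Psmg2 to 0.29 for Psme1, with a median of 0.07, and 33 of 47 lay above 0. Over all genes tested the median was 0.01 and 52.4% lay above 0. By class, 15 of 18 core genes lay above 0 (median 0.07), 14 of 20 genes of the regulatory particle (median 0.07), 2 of 5 activators and inhibitor (median -0.04) and 2 of 4 assembly chaperones (median -0.09). The count above 0 rested on single arrays, since 22 of 47 lay above 0 when miR-143DOX replicate 1 was left out, and 22 of 47 when control replicate 3 was. Among single probe sets, which mostly read 1 exon each, 312 of 485 lay above 0 (64.3%), against 50.3% over the probe sets of all genes tested.

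Among the constitutive cutting subunits, Psmb5, which carries the chymotrypsin-like site, measured 9.30, 9.23 and 8.97 in miR-143DOX replicates 1 to 3, against 9.24, 8.99 and 8.62 in control replicates 1 to 3 (log2). Psmb6, the caspase-like subunit, measured 9.57, 9.37 and 9.12 in miR-143DOX, against 9.50, 9.19 and 8.70 in control. Psmb7, the trypsin-like subunit, measured 10.21, 10.04 and 9.92 in miR-143DOX, against 10.17, 9.95 and 9.63 in control. All 3 genes were highest in miR-143DOX replicate 1, lowest in control replicate 3, and overlapped between the groups. Their differences were 0.22, 0.22 and 0.14, with standard errors of 0.17, 0.20 and 0.16 (limma adjusted p = 0.9997 each). Without control replicate 3 the differences of Psmb5, Psmb6 and Psmb7 were 0.05, 0.01 and 0.0004, and without control replicate 1 they were 0.36, 0.41 and 0.27.

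Over all 6 arrays the immune cutting subunits ran closer to 0. Psmb8, which takes the place of Psmb5, measured 6.88, 6.60 and 6.85 in miR-143DOX, against 6.86, 6.73 and 6.47 in control. Psmb9, which takes that of Psmb6, measured 8.40, 8.16 and 8.04 in miR-143DOX, against 8.37, 8.13 and 8.07 in control. Psmb10, which takes that of Psmb7, measured 7.06, 6.90 and 6.88 in miR-143DOX, against 7.41, 6.73 and 6.69 in control. The groups overlapped for all 3 genes, and the value of Psmb10 in control replicate 1 stood above the other 5 arrays. Differences were 0.09, 0.01 and 0.003, with standard errors of 0.15, 0.15 and 0.19. They too rested on single arrays. Without control replicate 3 those of Psmb8 and Psmb10 were -0.02 and -0.12. Without control replicate 1 those of Psmb9 and Psmb10 were 0.10 and 0.23. Over 16 other settings Psmb9 changed sign in 6 and Psmb10 in 5.

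The balance of immune over constitutive subunits was taken in each array as the mean deviation of Psmb8, Psmb9 and Psmb10 from their own means minus that of Psmb5, Psmb6 and Psmb7. It was -0.11, -0.19 and 0.06 in miR-143DOX replicates 1 to 3, against 0.05, -0.04 and 0.23 in control replicates 1 to 3, and the groups overlapped. Leukocytes express immune subunits strongly, and in such bulk samples fewer cells of a type and less RNA per cell cannot be told apart. The mean log2 of Kupffer cell markers (12 of 12 tested) was 6.97 to 7.30 in miR-143DOX and 7.07 to 7.16 in control. That of T and NK cell markers (6 of 12 tested) was 5.78 to 6.02 in miR-143DOX and 5.81 to 5.90 in control, and that of B cell markers (4 of 8 tested) was 5.32 to 5.50 in miR-143DOX and 5.20 to 5.25 in control. The B cell ranges did not overlap, the other ranges did, and the part of such cells in the immune subunits was not tested. The 4 B cell genes averaged 5.14 to 5.46, close above the filter at 5.06. Taken singly, 1 of the 4, Faim3, was separate and higher, against 3.4% of all genes. Separate and lower were 0, against 3.73%. Of the 4 genes Faim3, Cd79b and Cd22 each changed sign in 1 other setting, and Pax5 in 0. Of the 11 tested genes of class I antigen loading and the interferon gamma response, 2 lay above 0 (median -0.12), against 52.4% of all genes, and 0 were at an unadjusted p under 0.05, against 3.06% of all genes. The list is not one of interferon gamma targets alone. It also holds Calr and Pdia3, folding proteins of the endoplasmic reticulum, which differed by -0.29 each. The inducer Irf1 measured 6.83 ± 0.08 in miR-143DOX and 6.57 ± 0.09 in control (SD, n = 3 each), and Nlrc5, the activator of class I genes, 6.75 ± 0.21 in miR-143DOX and 7.09 ± 0.38 in control. Irf1 did not overlap between the groups and Nlrc5 did. Over 16 other settings the difference of Irf1 ran from -0.36 to 0.31, with the other sign in 1. The class I gene H2-D1, chosen after its values were seen, did not overlap either, in the other direction, at 10.82 ± 0.04 in miR-143DOX and 10.94 ± 0.05 in control. Of the 11 genes 1 was thus separate and higher, against 3.4% of all genes, and 1 separate and lower, against 3.73%.

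The structural beta genes Psmb1, Psmb2, Psmb3 and Psmb4 differed by -0.04 to 0.17, and the alpha genes Psma1 to Psma7 by -0.05 to 0.13. Psmb3 measured 10.17, 10.04 and 9.53 in miR-143DOX, against 10.04, 9.75 and 9.44 in control (standard error of the difference 0.20, and a difference of 0.01 without control replicate 3). Psma7, an alpha ring subunit, measured 8.93, 8.65 and 8.68 in miR-143DOX, against 8.93, 8.52 and 8.41 in control. Both had miR-143DOX replicate 1 or control replicate 1 at the top and control replicate 3 at the bottom. The alpha ring genes Psma1 and Psma2 differed by 0.08 each. Psma8, the testis-specific alpha subunit, averaged 5.34 ± 0.23 in miR-143DOX and 5.41 ± 0.09 in control, close above the filter.

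Genes of the core followed each other from mouse to mouse, within groups as well as between them. Over the 6 arrays the mean pairwise Pearson r among the 18 core genes was 0.62, and 0.64 after the group means were taken out, against 0.02 among all 15312 genes tested. The 3 constitutive cutting subunits had a mean r of 0.99 with each other, the 3 immune ones 0.66, the 4 structural beta genes 0.88 and the 8 alpha genes 0.42. These are descriptions over 6 arrays that were scaled together. With only the brightest probe set of each gene the core's mean r was 0.22, against 0.08 among all genes and 0.12 among genes with 4 to 7 probe sets. On the deposited values without further scaling the core's mean r was 0.49. With each array left out in turn it was 0.54 to 0.66.

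Control replicate 3 was lowest for both rings of the core, while the top and the middle arrays differed between them. The mean deviation of the 10 beta genes from their own means was 0.20, 0.04 and -0.10 in miR-143DOX replicates 1 to 3, against 0.21, -0.04 and -0.30 in control replicates 1 to 3. For the 8 alpha genes it was 0.15, -0.04 and -0.05 in miR-143DOX, against 0.08, -0.0002 and -0.14 in control. The spread inside each group was thus wider than the distance between the groups, with means of 0.03 ± 0.13 in miR-143DOX and -0.03 ± 0.19 in control for the 18 core genes (SD, n = 3 each). Control replicate 3 held the lowest value of 14 of the 18 core genes, against 23.6% of all genes, and miR-143DOX replicate 1 the highest value of 11, against 20.3% of all genes.

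**Figure D2:**
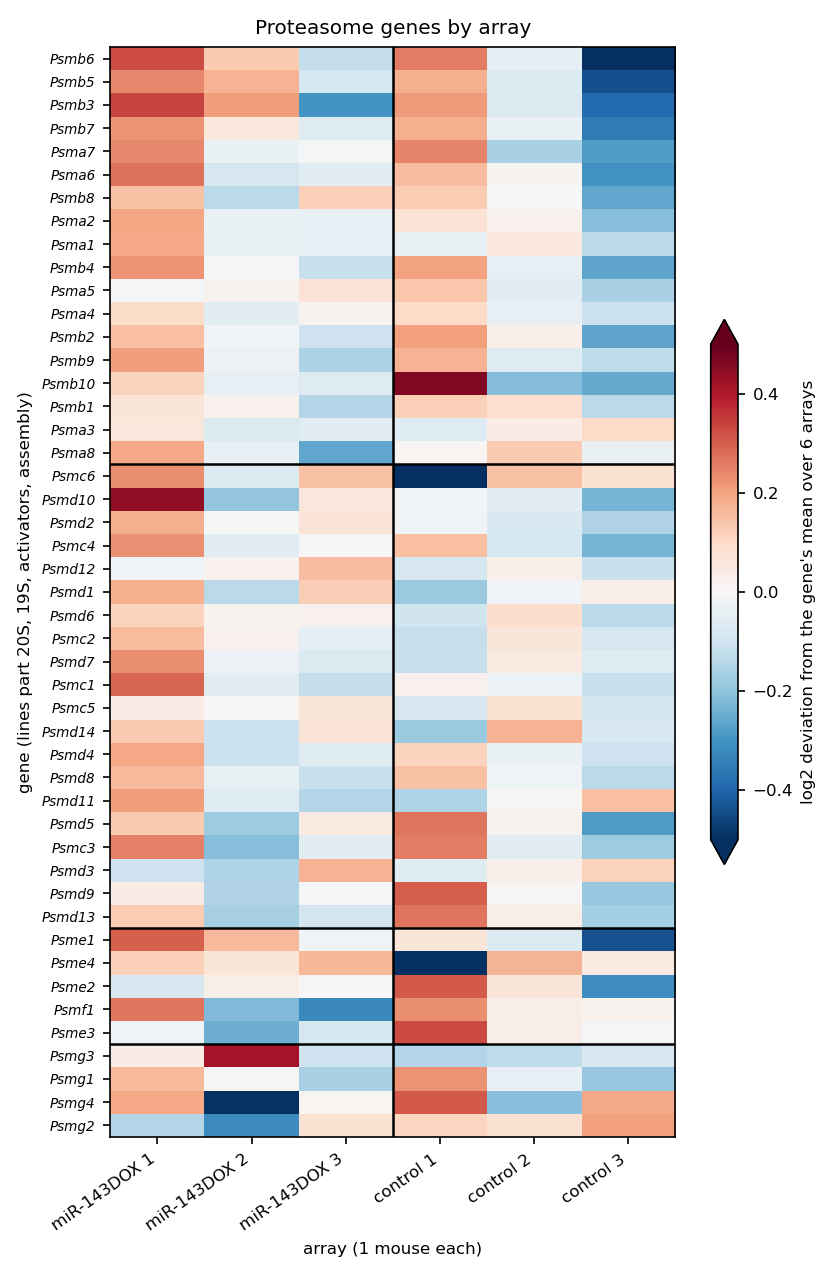
Deviation of each of the 47 tested proteasome genes (rows, grouped by particle) from its own mean over the 6 arrays (columns, 1 mouse each), in log2. Control replicate 3 is lowest for 14 of the 18 core genes, while Psmc6 and Psme4 are lowest in control replicate 1.

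Other genes on the same arrays ran in the same order. The 62 cytosolic ribosomal protein genes had mean deviations of 0.09, 0.01 and -0.08 in miR-143DOX replicates 1 to 3, against 0.18, 0.005 and -0.21 in control replicates 1 to 3. The 77 genes of the respiratory chain and ATP synthase had 0.20, 0.03 and -0.15 in miR-143DOX, against 0.19, -0.03 and -0.25 in control, with a mean pairwise r of 0.66. The order also went with the number of probe sets a gene has, which grows with its number of exons. The 3888 genes with 4 to 7 probe sets averaged 0.05, 0.03 and -0.06 in miR-143DOX, against 0.05, -0.01 and -0.07 in control. The 2149 genes with over 20 probe sets averaged -0.04, -0.03 and 0.06 in miR-143DOX, against -0.05, -0.001 and 0.06 in control, the reverse order. The mean pairwise r among genes with 4 to 7 probe sets was 0.09. The part of this array-wide pattern in the covariation of the core was not tested.

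**Figure D3:**
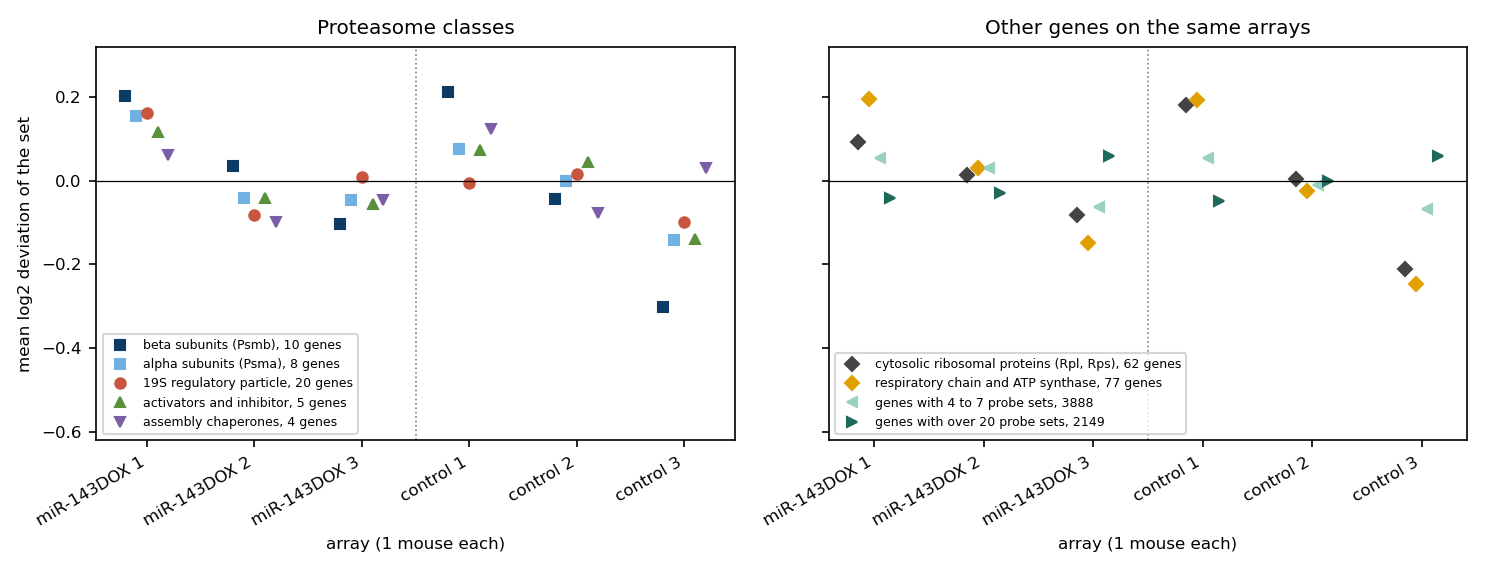
Mean log2 deviation of gene sets from their own means (y axis) in each of the 6 arrays (x axis, miR-143DOX left of control). Left, proteasome classes; right, ribosomal protein genes, respiratory chain genes, and all genes with few or many probe sets. The beta subunits run from 0.21 in control replicate 1 to -0.30 in control replicate 3, wider than the distance between the groups.

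The promoters of core genes are shown because these genes varied together over the mice. RefSeq windows from 250 bases before to 50 bases after the transcription start (GRCm38.p6) were found for 40 of the 48 proteasome genes. Each was searched on both strands for the core of the antioxidant response element that NRF1 (Nfe2l1) and NRF2 bind (TGACNNNGC), the CCAAT box (CCAAT) and the palindromic site of nuclear respiratory factor 1. Matches to any of the 3 are in capitals in the following windows, written 5′ to 3′ along the gene. Psmb4 is the core gene that followed the mean of the others most closely, and Psmb5 and Psmb6 are cutting subunits. Psme4 had a negative r with the core mean (-0.43), with control replicate 1 far from the rest. There Psme4 measured 9.15, against 9.75 to 9.88 in the other arrays, while the core genes averaged 0.15 above their own means. Among the other arrays Psme4 was lowest in control replicate 3 (9.75), where the core genes were lowest too (-0.23). The negative r of Psme4 thus rested on control replicate 1.
Psmb4, chr3:94886909-94887208, minus strand: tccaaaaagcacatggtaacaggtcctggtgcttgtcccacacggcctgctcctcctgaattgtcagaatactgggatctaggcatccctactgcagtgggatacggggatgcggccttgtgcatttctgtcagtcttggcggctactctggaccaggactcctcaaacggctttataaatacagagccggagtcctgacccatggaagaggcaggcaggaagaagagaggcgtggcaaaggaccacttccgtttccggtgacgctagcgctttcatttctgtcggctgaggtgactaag
Psmb5, chr14:54617946-54618245, minus strand: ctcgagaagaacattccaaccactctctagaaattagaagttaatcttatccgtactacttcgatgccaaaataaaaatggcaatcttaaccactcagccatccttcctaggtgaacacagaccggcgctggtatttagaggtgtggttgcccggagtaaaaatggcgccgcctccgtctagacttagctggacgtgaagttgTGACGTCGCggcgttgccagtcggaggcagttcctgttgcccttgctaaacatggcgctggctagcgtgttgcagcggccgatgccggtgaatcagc
Psmb6, chr11:70525107-70525406, plus strand: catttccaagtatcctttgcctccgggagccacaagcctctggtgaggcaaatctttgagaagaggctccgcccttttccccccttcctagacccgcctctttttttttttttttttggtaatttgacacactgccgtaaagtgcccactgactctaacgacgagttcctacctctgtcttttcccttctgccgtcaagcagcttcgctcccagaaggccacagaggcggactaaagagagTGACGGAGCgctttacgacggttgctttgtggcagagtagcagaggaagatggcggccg
Psme4, chr11:30771525-30771824, plus strand: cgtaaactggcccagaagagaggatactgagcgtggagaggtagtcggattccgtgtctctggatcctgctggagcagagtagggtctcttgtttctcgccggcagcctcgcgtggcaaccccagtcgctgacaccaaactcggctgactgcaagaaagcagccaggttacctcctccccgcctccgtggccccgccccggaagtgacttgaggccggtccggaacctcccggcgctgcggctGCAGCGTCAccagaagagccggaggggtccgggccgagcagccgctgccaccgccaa

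Psmb5 and Psmb6 each held the antioxidant element core once, with its first base at position -47 and -9 from the start, and Psme4 held it on the other strand at -7. The window of Psmb4 held none of the 3 motifs. Over the 40 genes, 6 held the antioxidant element core (15%), against 14.0% of the promoters of 27025 genes. CCAAT was in 14 of 40 (35%), against 41.1% of all genes. Among these, 8 of 15 core genes held CCAAT (53.3%) and 5 of 17 genes of the regulatory particle (29.4%). The core genes that held it include Psmb11, which the filter left out, and Psma3, whose r with the core mean was -0.36. The site of nuclear respiratory factor 1 was in 7 of 40 (17.5%), against 5.19% of all genes. A match describes these letters and is not evidence of binding.

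With probe sets averaged, the regulatory particle varied less evenly than the core. Its 20 genes had a mean pairwise r of 0.33, which was 0.13 when miR-143DOX replicate 1 was left out, 0.54 when control replicate 1 was, and 0.22 with the median over probe sets. With only the brightest probe set of each gene the order turned, at 0.25 for the regulatory particle and 0.22 for the core. Mean deviations of these genes were 0.16, -0.08 and 0.01 in miR-143DOX replicates 1 to 3, against -0.01, 0.02 and -0.10 in control replicates 1 to 3. Of the 20 genes, 9 correlated with the core mean at r of 0.7 or more and 5 lay below 0. The corresponding numbers were 15 and 1 of 18 core genes (each core gene set against the others), and 16.4% of all genes tested reached 0.7. The share of all genes below 0 was not taken. Of the 5 genes of the regulatory particle below 0, Psmc6 (-0.34), Psmd1 (-0.13) and Psmd11 (-0.07) were lowest in control replicate 1. The core stood 0.15 above its own means there, and the negative r of these genes rested on that array. The others were Psmd12 (-0.03) and Psmd3. Psmd8 (r = 0.95) and the ATPase gene Psmc4 (0.94) followed the core most closely. Psmd3, a scaffold subunit of the lid, ran most against it (-0.71).

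**Figure D4:**
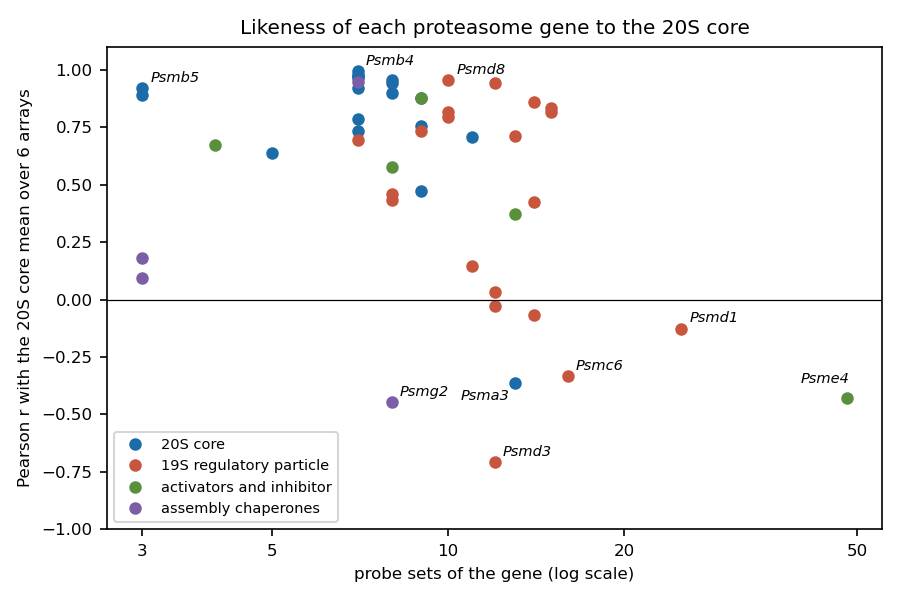
Pearson r of each tested proteasome gene with the mean of the 20S core over the 6 arrays (y axis, the gene itself left out of the mean) against its number of probe sets (x axis, log scale). Psmb4 is at the top (0.996), and Psmd3 (-0.71), Psmg2 (-0.45), Psme4 (-0.43) and the core gene Psma3 (-0.36) lie lowest.

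Among the ATPases, which form the unfolding ring, Psmc6 measured 9.33, 9.02 and 9.24 in miR-143DOX, against 8.57, 9.24 and 9.17 in control. Control replicate 1 stood alone at the bottom, and 13 of the 16 probe sets of Psmc6 were lowest in that array. The difference was 0.20 (standard error 0.18), and -0.009 without control replicate 1. Psmc4 measured 9.18, 8.89 and 8.95 in miR-143DOX, against 9.10, 8.86 and 8.72 in control. Psmc1 differed by 0.08, Psmc2 by 0.09 and Psmc5 by 0.07, and Psmc3 by -0.01.

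Psmd2, a large scaffold subunit of the base, was the one gene of the regulatory particle whose groups did not overlap. It measured 10.15, 9.96 and 10.03 in miR-143DOX, against 9.95, 9.89 and 9.81 in control. The difference was 0.16 (standard error 0.13, limma unadjusted p = 0.232, adjusted p = 0.9997), and 12 of its 13 probe sets lay above 0. Over all proteasome genes 1 of 47 was separate in this direction, against 3.4% of all genes, and 1 of 47, Psme3, in the other, against 3.73%.

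Psmd10, gankyrin, an assembly chaperone of the base, measured 7.88, 7.24 and 7.49 in miR-143DOX, against 7.42, 7.38 and 7.20 in control. Psmd1, the other large scaffold of the base, measured 9.73, 9.42 and 9.68 in miR-143DOX, against 9.37, 9.54 and 9.59 in control, and the lid gene Psmd12 9.15, 9.18 and 9.32 in miR-143DOX, against 9.08, 9.19 and 9.05 in control. All 3 overlapped between the groups, with differences of 0.20, 0.11 and 0.11. Psmd10 rested on single arrays, with a difference of 0.03 when miR-143DOX replicate 1 was left out and 0.35 when miR-143DOX replicate 2 was. The ubiquitin receptor gene Psmd4 differed by 0.02 and Psmd14, which encodes the enzyme that cuts ubiquitin off the substrate, by 0.06. The other base chaperones Psmd5 and Psmd9 differed by -0.002 and -0.08. The remaining 6 Psmd genes lay between -0.09 for Psmd13 and 0.10 for Psmd6.

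The activators held the widest spread of differences. Psme1, the alpha subunit of the interferon-inducible activator, measured 10.17, 10.03 and 9.85 in miR-143DOX, against 9.93, 9.80 and 9.44 in control. The groups overlapped by 1 pair, miR-143DOX replicate 3 and control replicate 1. Its difference was 0.29 (standard error 0.16, interval -0.06 to 0.64, limma unadjusted p = 0.092, adjusted p = 0.9997), the highest of the 47 genes and 1.23-fold. All 9 of its probe sets lay above 0. Of the 41 proteasome genes with at least 7 probe sets, 2 (Psme1 and Psmb7) had all above 0 and 0 had all below, against 1.36% and 1.63% of the 9808 such genes tested. Without control replicate 3, in which all 9 probe sets were lowest, the difference was 0.15.

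Its partner Psme2, the beta subunit of the same activator, lay near 0. Psme2 measured 8.44, 8.55 and 8.52 in miR-143DOX, against 8.82, 8.58 and 8.21 in control, a difference of -0.04 (standard error 0.16). The controls lay on both sides of the miR-143DOX arrays. Psme2 has a near-identical copy, Psme2b, and the probe set that names both was left out; other Psme2 probe sets may also read the copy.

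Psme3, the nuclear activator, measured 8.86, 8.64 and 8.79 in miR-143DOX, against 9.21, 8.92 and 8.88 in control. Every miR-143DOX array lay below every control array, with miR-143DOX replicate 1 and control replicate 3 nearly level. The difference was -0.24 (standard error 0.14, interval -0.55 to 0.07, limma unadjusted p = 0.123, adjusted p = 0.9997), and 9 of 13 probe sets lay below 0. It was -0.11 with the median over probe sets, where the groups overlapped, and -0.13 without control replicate 1.

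Psme4, the large activator PA200, has 48 probe sets, the most of the family. It measured 9.83, 9.77 and 9.88 in miR-143DOX, against 9.15, 9.88 and 9.75 in control. In 41 of the 48 probe sets control replicate 1 was the lowest array, and 43 of the 48 lay above 0 as differences. The difference of 0.23 (standard error 0.18) was 0.01 without that mouse. Psmf1, the inhibitor PI31, measured 7.61, 7.12 and 7.02 in miR-143DOX, against 7.57, 7.37 and 7.36 in control, a difference of -0.18 (standard error 0.17), which was 0.08 with its brightest probe set and -0.36 without miR-143DOX replicate 1 (limma unadjusted p = 0.0412).

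**Figure D5:**
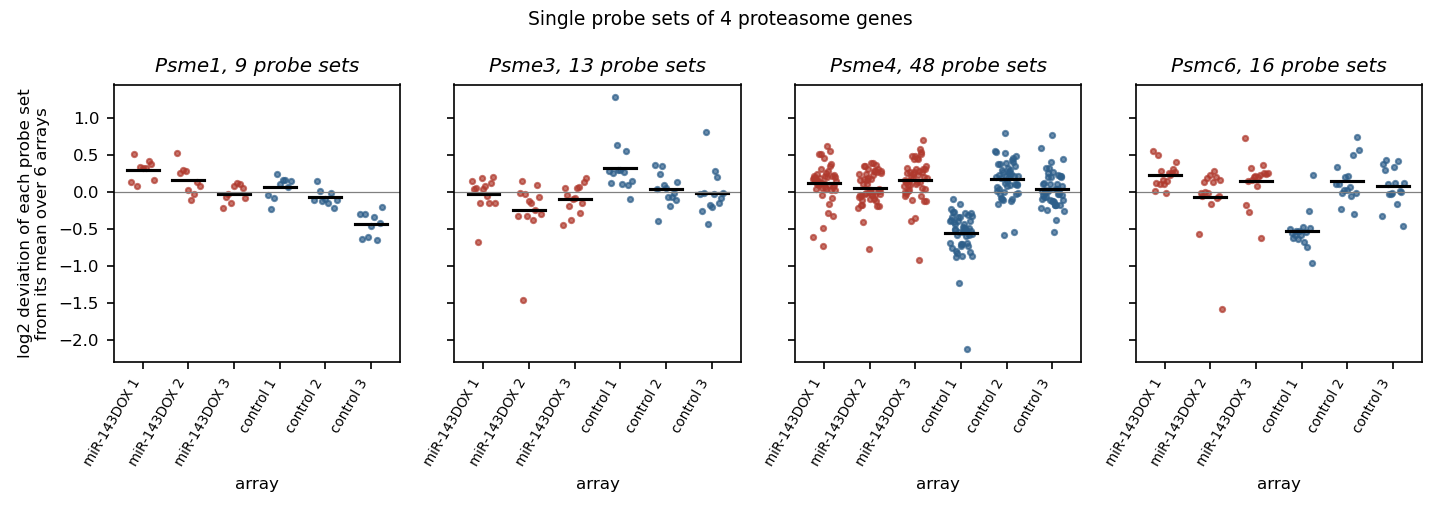
Deviation of single probe sets (points) from their own means over the 6 arrays, in log2, for Psme1, Psme3, Psme4 and Psmc6, with the mean of each array as a bar (miR-143DOX left, control right). Control replicate 3 is lowest in all 9 probe sets of Psme1, and control replicate 1 in 41 of 48 of Psme4 and 13 of 16 of Psmc6.

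The assembly chaperones Psmg1 to Psmg4 pair up to build the alpha ring. Psmg1 measured 8.46, 8.31 and 8.14 in miR-143DOX, against 8.53, 8.26 and 8.11 in control, and Psmg2, its partner, 6.88, 6.71 and 7.10 in miR-143DOX, against 7.13, 7.10 and 7.23 in control. Psmg1 followed the core (r = 0.95) and differed by 0.004. Psmg2 differed by -0.26, the lowest of the 47 genes (standard error 0.14, interval -0.57 to 0.05, limma unadjusted p = 0.0942, adjusted p = 0.9997), and its groups overlapped only through miR-143DOX replicate 3. With the median over its probe sets it differed by -0.07.

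Psmg3 measured 6.24, 6.61 and 6.10 in miR-143DOX, against 6.05, 6.07 and 6.12 in control, and its partner Psmg4 5.56, 4.88 and 5.38 in miR-143DOX, against 5.68, 5.16 and 5.56 in control. Each rests on 3 probe sets, and miR-143DOX replicate 2 was the highest array for Psmg3 and the lowest for Psmg4. The differences were 0.23 and -0.19, with standard errors of 0.15 and 0.19, and without that array they were 0.09 and 0.005. Psmc3ip, which shares only the prefix and encodes a recombination factor of meiosis, averaged 5.38 ± 0.22 in miR-143DOX and 5.23 ± 0.19 in control.

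Proteins that work with the proteasome without a Psm name were taken from a written list of 21, of which 18 were tested. Of these 12 lay above 0 (median 0.05), against 52.4% of all genes. At an unadjusted p under 0.05 in limma, 1 was higher, against 1.38% of all genes, and 0 lower, against 1.68%. At 5% FDR 0 passed. Zfand5, a ubiquitin-binding stimulator of the proteasome, measured 8.85 ± 0.03 in miR-143DOX and 8.56 ± 0.14 in control (SD, n = 3 each, difference 0.29, limma unadjusted p = 0.0465, adjusted p = 0.9997). Its groups did not overlap. Of the 18 genes 1 was thus separate and higher, against 3.4% of all genes, and 0 separate and lower, against 3.73%. Adrm1, the ubiquitin receptor RPN13, and Uchl5, the deubiquitinase it holds, differed by 0.21 and 0.18, and the proteasomal ubiquitin ligase Ube3c by 0.26, with overlapping groups. Nfe2l1, the transcription factor that raises proteasome genes when the protease is blocked, differed by 0.05.

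Genes of the endoplasmic reticulum list lay mostly below 0. Of 20 tested genes of the pathway that returns misfolded proteins to the cytosol for degradation, 3 lay above 0 (median -0.13), against 52.4% of all genes. At an unadjusted p under 0.05 there were 0, against 3.06% of all genes, and 0 at 5% FDR. The median was -0.0097 when only the brightest probe set stood for each gene, and it was -0.12 to -0.07 with arrays left out in turn. The ubiquitin ligase Syvn1 measured 8.71, 8.32 and 8.73 in miR-143DOX, against 8.69, 8.79 and 9.52 in control. Herpud1, a partner of that ligase, measured 10.54 ± 0.36 in miR-143DOX and 10.88 ± 0.26 in control (SD, n = 3 each). Both overlapped between the groups. Averaged over the 20 genes, the deviation from each gene's own mean was -0.06 ± 0.07 for the miR-143DOX arrays and 0.06 ± 0.05 for the control arrays. Of 10 listed genes of ubiquitin and of enzymes that activate it or its relatives, only 4, Uba3, Uba6, Nae1 and Sae1, were tested here. They lay between -0.08 and 0.28, with 0 at an unadjusted p under 0.05.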

How the data were processed

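RNA of 6 hepatocyte preparations was read on 6 arrays. The authors deposited 1 table of 234873 probe sets, taken as log2 because the deposited log2 values run from 1.60 to 15.16. The submitters' processing notes name Partek. Background correction, normalization and genome build are not stated there. The platform annotation gave 1 symbol for 212097 probe sets, several for 4475 and none for 18301, and only the first kind was used. The 75th and 95th percentiles of the arrays differed by 0.127 and 0.135, above the tolerance of 0.1, so the values were quantile normalized. Probe sets were averaged per gene and the lowest 25% of genes left out. A two-sided moderated test with group as the only term was run in limma 3.58.1 (R 4.3.3), with Benjamini-Hochberg adjustment over 15312 genes. The procedure was tested on simulated data. The differences planted there were larger than that of any proteasome gene here, so smaller ones were not tried. No detection call was used. Precision is set by having 3 arrays per group (residual SD after limma's moderation 0.183 at the median gene). Replicates are separate mice.

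The proteasome genes, the lists and their tests were chosen with earlier results of these data known. Values per array were given for Psmb5 to Psmb10, the activators, the inhibitor, the assembly chaperones, and for up to 4 of the other core genes, of the ATPases and of the Psmd genes with the smallest unadjusted p; lists gave up to 4 genes each. Any other proteasome gene could be named with its difference. Alternatives were other scalings, filters on dim genes or probe sets, other gene summaries, other variance models, leaving out arrays one by one, and a block for the replicate number. The mean pairwise correlations, and their alternatives, were added after seeing the data. Of the marker lists, neutrophil, sinusoidal endothelium, stellate and cholangiocyte medians were 0.03, -0.12, 0.04 and 0.001, and those of hepatocytes, Kupffer, T and NK and B cells 0.01, 0.06, 0.05 and 0.15.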

Additional observations from a re-analysis of the deposited data

How the results depend on the processing

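Over 16 other settings, single arrays left out included, 0 genes passed 5% FDR over all genes in limma, with 1.96% to 7.37% of genes at an unadjusted p under 0.05. The median difference of the proteasome genes lay between -0.0084 and 0.10, that of the core between -0.01 and 0.15 and that of the regulatory particle between 0.002 and 0.12, each within the spread between replicates. Members at an unadjusted p under 0.05 numbered 0; they were 2 with array weights (Psme1 and Psmg2), 1 with the replicate block (Psme1), and 0 to 1 with each array left out (Psmf1 without miR-143DOX replicate 1, Psmg2 without miR-143DOX replicate 3, Psme1 without control replicate 1). The median of the 5 activators and inhibitor was 0.077 with the brightest probe set, and -0.20 to 0.0080 with each array left out. The median of the 4 assembly chaperones was 0.0038 with the lowest 50% of genes left out, where fewer of them were tested, 0.066 with the median over probe sets, and -0.16 to 0.015 with each array left out; the cause was not tested. Same-numbered mice correlated in their deviations at 0.11, 0.05 and 0.30, which was not over 0.1 in every pair, and the labels give the numbers no shared litter or day. As a hint from the data, miR-143DOX replicates 2 and 3 correlated best with the control of their own number, and miR-143DOX replicate 1 with control replicate 2 (0.15). The interval of each gene shows which differences 3 arrays per group leave possible.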

Other observations

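A set of 4 probe sets names a proteasome gene together with another gene and was not used for the genes. The probe set shared by Psma5 and Gm8394 measured 8.32 ± 0.18 in miR-143DOX and 8.21 ± 0.19 in control (log2, SD, n = 3 each). That shared by Psme2 and its copy Psme2b-ps measured 7.32 ± 0.08 in miR-143DOX and 7.46 ± 0.19 in control. The probe set shared by Psmc3 and Slc39a13 measured 7.93 ± 0.50 in miR-143DOX and 8.16 ± 0.11 in control. The probe set shared by Psma2 and Gm4118 was dim, under the level of 5.06 used to filter genes. It measured 3.33, 3.34 and 3.36 in miR-143DOX replicates 1 to 3 and 3.55, 3.59 and 3.75 in control replicates 1 to 3. Its groups did not overlap, while those of the other shared probe sets did. The share of all probe sets without overlap was not taken.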
